A study of Mus musculus with 10 samples.

Results

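Interferon-stimulated genes are the genes that cells switch on after an interferon has bound its receptor. A list of 35 of them, from the Ifit, Oas and Mx families to the guanylate-binding proteins and the antigen processing genes, was drawn up by name, with earlier results of these data known. Of the 35 genes, 33 had a probe set that the platform annotation gives to exactly 1 gene symbol, with 51 such probe sets in all, out of 18193 genes and 34945 probe sets of that kind on the array. Isg15 and Ifi44 were not analysed here, because no probe set carried either symbol alone. Gene expression was compared between the abdominal aorta of 4 WT mice and of 6 KCASP1Tg mice with Affymetrix GeneChip arrays for the mouse genome, 1 array per mouse. KCASP1Tg mice carry the human caspase-1 gene under the keratin 14 promoter, which is active in keratinocytes, and they develop dermatitis. The WT mice were C57BL/6 littermates. According to the methods the KCASP1Tg mice were female. Mice of both genotypes were 16 weeks old, and neither genotype received a further treatment that the labels name. The labels call the tissue dechorionated abdominal aorta. Smooth muscle transcripts were bright on every array, with signals of Acta2, the smooth muscle actin, from 35370 to 41900 in WT mice and from 18140 to 42490 in KCASP1Tg mice. Fat transcripts were bright too, with Adipoq, the adipocyte hormone adiponectin, from 30700 to 37710 and from 29500 to 45370. In such bulk samples, fewer cells of a type and less RNA per cell cannot be told apart.

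Type I interferons signal through a receptor whose kinases activate Stat2, and Stat2 and Irf9 are parts of a complex that binds the interferon-stimulated response element (ISRE) in the promoters of its target genes. IFN-gamma signals through a different receptor, and its targets are known for the gamma-activated site (GAS) in their promoters. Many targets answer to both, but Ifit, Oas and Mx genes are best known from the type I response to viruses, and the large GTPases and the immunoproteasome from the response to IFN-gamma. In arteries, interferon-stimulated genes are known from smooth muscle, endothelial cells and the leukocytes that enter an inflamed wall.

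The promoters are shown because ISRE and GAS motifs are where these signals reach the genes, and the list was not drawn up from them. The RefSeq windows of build GRCm38.p6 run from 250 bases before to 50 bases after each gene start, and 27 of the 35 genes had one. An ISRE core was taken as GAAA, any 2 bases and GAAA again, and a GAS as TTCNNNGAA, both searched on both strands. In the windows of these genes 1 ISRE core overlapped a GAS. The ISRE core was found in the windows of 15 of the 27 genes (55.6%), against 3.99% of 27025 genes on the whole. A GAS was found in 8 of the 27 (29.6%), against 9.55% of all genes. The ISRE core was in the windows of 5 of 5 GTPases, 4 of 7 Ifit, Oas and Mx genes, 4 of 7 other antiviral effectors, 1 of 1 RNA sensor and 1 of 4 transcription factors, and in 0 of 3 antigen processing genes, of which 1 (Psmb8) had a GAS. In the 5 windows printed below, capitals mark the ISRE core in Rsad2, Ifit3 and Igtp and the GAS in Igtp and Psmb8. A match is a description of the letters and not a site shown to be bound.
Rsad2: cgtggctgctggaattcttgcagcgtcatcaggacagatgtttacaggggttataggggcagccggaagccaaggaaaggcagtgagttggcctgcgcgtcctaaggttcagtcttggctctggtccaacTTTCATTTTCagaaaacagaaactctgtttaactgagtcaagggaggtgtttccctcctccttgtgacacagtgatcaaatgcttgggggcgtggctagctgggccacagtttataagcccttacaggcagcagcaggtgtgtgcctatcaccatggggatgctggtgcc
Ifit3: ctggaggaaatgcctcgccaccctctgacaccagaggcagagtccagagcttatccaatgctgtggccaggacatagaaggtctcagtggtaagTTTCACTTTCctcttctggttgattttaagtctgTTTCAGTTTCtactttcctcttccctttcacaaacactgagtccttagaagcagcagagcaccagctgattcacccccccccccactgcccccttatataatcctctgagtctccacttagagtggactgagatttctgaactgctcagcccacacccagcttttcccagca
Igtp: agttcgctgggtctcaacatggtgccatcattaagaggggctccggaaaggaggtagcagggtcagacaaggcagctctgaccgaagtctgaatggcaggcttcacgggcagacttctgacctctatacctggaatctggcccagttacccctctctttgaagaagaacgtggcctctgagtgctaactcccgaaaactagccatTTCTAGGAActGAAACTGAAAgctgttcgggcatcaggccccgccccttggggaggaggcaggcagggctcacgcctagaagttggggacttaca
Psmb8: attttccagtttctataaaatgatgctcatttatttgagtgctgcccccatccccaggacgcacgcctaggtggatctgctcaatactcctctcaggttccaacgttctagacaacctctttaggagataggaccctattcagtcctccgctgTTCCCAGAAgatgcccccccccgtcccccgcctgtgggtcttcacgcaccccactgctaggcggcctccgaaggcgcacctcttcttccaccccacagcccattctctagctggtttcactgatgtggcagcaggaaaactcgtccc
Tap1: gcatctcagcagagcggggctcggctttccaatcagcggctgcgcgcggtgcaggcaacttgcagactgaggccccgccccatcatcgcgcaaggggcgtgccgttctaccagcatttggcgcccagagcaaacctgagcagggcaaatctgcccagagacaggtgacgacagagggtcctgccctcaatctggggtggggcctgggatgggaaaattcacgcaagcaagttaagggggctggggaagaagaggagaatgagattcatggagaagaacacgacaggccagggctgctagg
The windows lie at chr12:26456403-26456702 on the minus strand for Rsad2 and, on the plus strand, at chr19:34583279-34583578 for Ifit3, chr11:58199306-58199605 for Igtp, chr17:34197945-34198244 for Psmb8 and chr17:34187306-34187605 for Tap1. The core of Rsad2 begins at position -120 from the gene start, and Ifit3 has 2 cores. In Igtp the GAS and the ISRE core lie next to each other, from positions -45 and -34. The Tap1 window holds neither motif. It shares 275 bases with the window of Psmb9, which lies on the minus strand at chr17:34187281-34187580.

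The authors computed the signals with MAS5.0, 1 for each probe set, and scaled every array to a trimmed mean of 500. For each gene the probe set with the highest mean signal was used, so levels are compared between mice and not between genes. Limma was run on log2 values of the 26242 probe sets whose signal reached 100 on 4 or more arrays, and a gene was called at an adjusted p under 0.05. Of the 33 genes, 31 passed this filter. A log2 fold change is KCASP1Tg minus WT throughout.

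Several arrays stood apart in ways that touch these genes. KCASP1Tg 4 had the highest signal of all 10 arrays for 20 of the 33 genes, while WT 4 and KCASP1Tg 2 had the lowest for 14 genes each. On KCASP1Tg 4 the mean log2 signal of 9 T cell and natural killer cell markers was 8.57, against 5.18 to 6.08 in WT mice and 5.71 to 6.57 on the other KCASP1Tg arrays. Its mean for 3 B cell markers was 11.25, against 5.56 to 8.35 on the other arrays, and for 6 smooth muscle markers it was 10.80, against 12.19 to 12.60. Heart muscle markers were bright on WT 4, KCASP1Tg 1 and KCASP1Tg 2 (means of 13.34, 12.26 and 11.43 over 5 markers) and liver markers on WT 1 and WT 3 (14.22 and 12.85 over 4 markers). The part of these transcripts in the results was not tested.

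**Figure D1:**
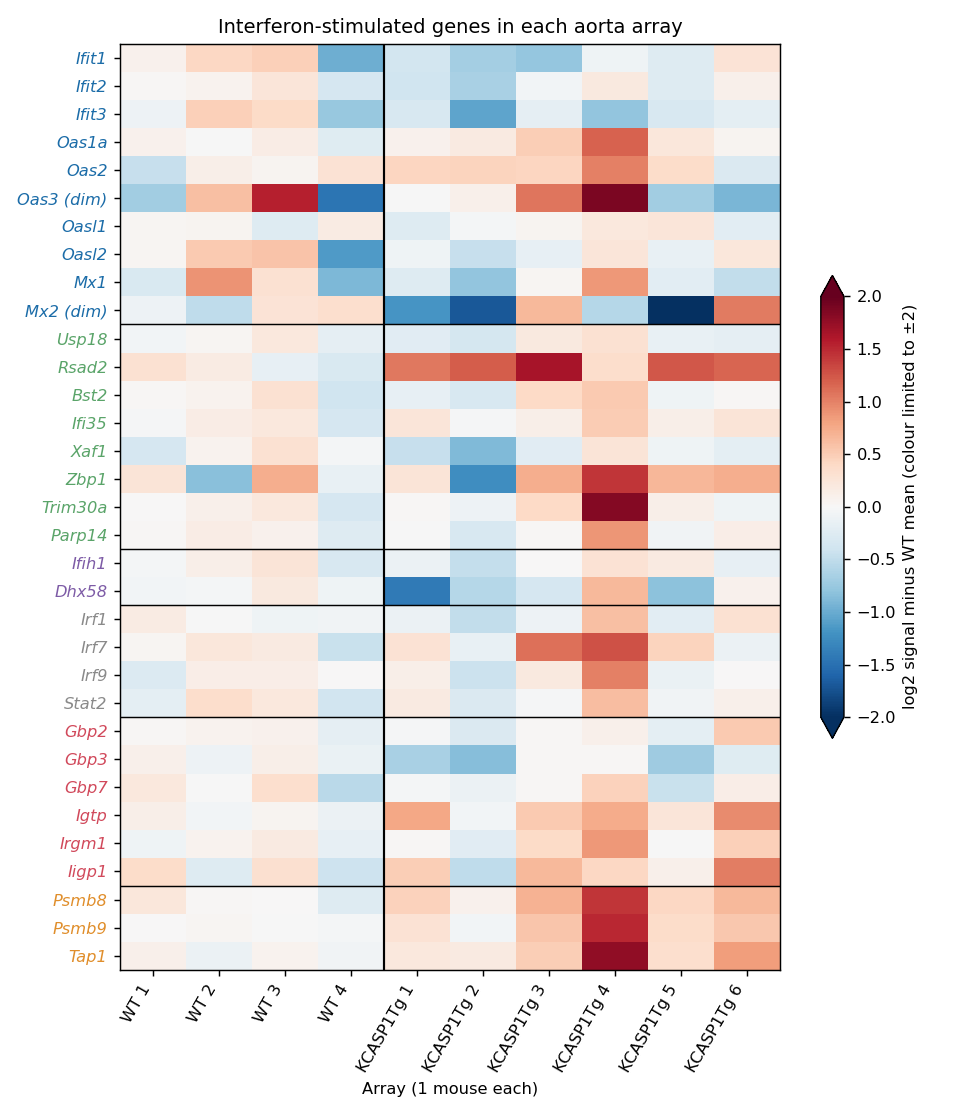
Log2 signal of each of the 33 measured interferon-stimulated genes on each of the 10 arrays, minus the mean of that gene over the 4 WT arrays, with 1 row per gene and 1 column per mouse. Gene names are coloured by role, from the Ifit, Oas and Mx genes at the top to antigen processing at the bottom, and (dim) marks the 2 genes that did not pass the signal filter. Rsad2 was above the WT mean on all 6 KCASP1Tg arrays, and KCASP1Tg 4 had the highest signal for 20 genes.

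No interferon-stimulated gene on the list passed the test over all probe sets in KCASP1Tg aorta. Of the 31 tested genes limma called 0 in either direction, where it called 0.0894% of 12301 genes higher and 0.0% lower. Before adjustment, 4 of the 31 had a p under 0.05 and were higher (Rsad2, Igtp, Psmb8 and Tap1), and 0 were lower, against 4.67% and 3.42% of all genes tested. The exact Mann-Whitney test, adjusted over all probe sets, called 0 as well. In 2 of the 31 genes, Rsad2 and Tap1, all KCASP1Tg arrays exceeded all WT arrays, against 2.29% of all genes, and 0 genes showed the opposite, against 1.04%. The log2 fold change was above 0 for 20 of the 33 genes, with a median of 0.08 and a range from -0.64 (Mx2) to 1.11 (Rsad2). Over all genes tested 50.2% were above 0, with a median of 0.0004. Without KCASP1Tg 4, 14 of the 33 genes were above 0 and the median was -0.04.

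**Figure D2:**
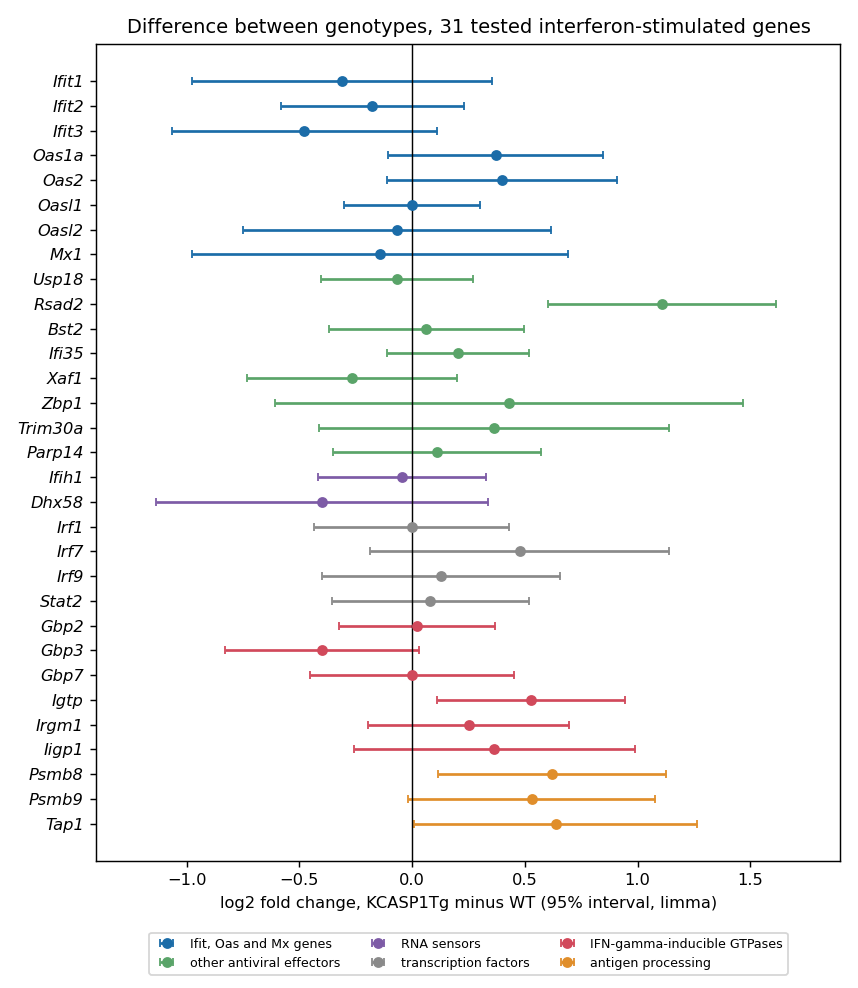
Log2 fold change (KCASP1Tg minus WT) of the 31 tested interferon-stimulated genes, 1 row per gene. Points are the limma estimates, bars their 95% intervals and colours the roles. The interval lay above 0 for Rsad2, Igtp, Psmb8 and Tap1 before adjustment for the number of probe sets, and 0 of the 31 genes passed after it.

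The Ifit, Oas and Mx genes are the classic antiviral set: Ifit proteins bind viral RNA, Oas enzymes make the short oligoadenylates that activate RNase L, and Mx proteins are GTPases that block incoming virus inside the cell. None of the 8 tested was called, and 3 of the 10 measured had a log2 fold change above 0, with a median of -0.10. This median was 0.0621 without WT 2, -0.36 without WT 4, -0.066 without WT 3, -0.0036 without KCASP1Tg 2 and -0.19 without KCASP1Tg 4. The 3 Ifit genes were all below 0. Ifit3 had signals of 1298, 1950, 1830 and 829.5 in WT 1 to WT 4 and of 671 to 1230 (median 1122) in KCASP1Tg mice. WT 4 was within the KCASP1Tg range, and the other 3 WT arrays were above every KCASP1Tg array. Ifit3 had a log2 fold change of -0.48 (limma adjusted p = 0.722, standard error 0.27). For Ifit1 and Ifit2 it was -0.31 and -0.18, with every adjusted p among the tested genes of this set at 0.722 or above by limma. WT 4 also carried heart muscle transcripts. Without WT 4, KCASP1Tg 1 and KCASP1Tg 2, Ifit3 was lower on all 4 remaining KCASP1Tg arrays than on the 3 remaining WT arrays. The same held for 3.52% of all tested probe sets. For Ifit3 it follows from leaving out WT 4, the only WT array that overlapped, so it is no further evidence. Limma called 0 of the 31 tested genes in that setting.

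Oas1a, Oas2 and Oas3 had log2 fold changes above 0. Oas2 had signals of 186, 279.7, 267 and 315 in WT mice and of 209.8 to 518 (median 346) in KCASP1Tg mice, where 5 of 6 arrays were above all WT arrays and KCASP1Tg 6 was among the WT values. The difference was 0.40 on the log2 scale (limma adjusted p = 0.736, standard error 0.23). Oas1a had signals of 545, 512, 570.0 and 434 in WT mice and of 531 to 1167 (median 592) in KCASP1Tg mice. Here 4 of 6 KCASP1Tg arrays were above all WT arrays, with KCASP1Tg 4 the highest at 1167. Oas1a differed by a log2 value of 0.37 (limma adjusted p = 0.739, standard error 0.22) and 0.21 without KCASP1Tg 4. Oasl1 and Oasl2, which share the Oas fold, and Mx1 had log2 fold changes of -0.002, -0.07 and -0.14, which were -0.0431, -0.13 and -0.34 without KCASP1Tg 4. Oas3 and Mx2 did not pass the filter, with signals from 10.1 to 81.6 in WT and 14.8 to 102 in KCASP1Tg mice for Oas3 and from 33.6 to 60.2 and 11.2 to 98.1 for Mx2. For both genes the range of these dim signals within each genotype was wider than the difference between the mean signals of the genotypes. For Mx2, 4 of 6 KCASP1Tg arrays were below all WT arrays and 2 were above all of them.

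Among the other antiviral effectors, Rsad2 differed most. Rsad2 encodes viperin, an enzyme that makes a nucleotide which stops the copying of viral RNA. Its signals were 2326, 2120, 1674 and 1521 in WT 1 to WT 4 and 2389 to 5923 (median 4274) in KCASP1Tg mice. No KCASP1Tg array fell within the WT range, and the closest was KCASP1Tg 4 at 2389, beside 2326 in WT 1. The mean signal was 1910 ± 376 (SD, n = 4) in WT mice and 4199 ± 1133 (SD, n = 6) in KCASP1Tg mice, which differ by 1.11 on the log2 scale (95% interval 0.60 to 1.62). It did not pass over all probe sets (limma adjusted p = 0.144), and its unadjusted p by the exact two-sided Mann-Whitney test, 0.00952, is the smallest that 4 arrays against 6 can give. All 3 Rsad2 probe sets gave a like difference, from 1.03 to 1.17, and in none of them did the genotypes overlap. Without KCASP1Tg 4 the log2 fold change was 1.26 and passed the test (limma adjusted p = 0.018), and with array weights it was 1.14 and passed (limma adjusted p = 0.00945). Over all 23 alternatives the value stayed between 0.997 and 1.26, with adjusted p-values from 0.00945 to 0.792.

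The mice that were highest for Rsad2 were not those highest for the list as a whole. KCASP1Tg 4, the highest array for 20 genes, was the lowest KCASP1Tg array for Rsad2. KCASP1Tg 3 was the highest for Rsad2, with 5923. The mean of 4 adipocyte markers was also lowest on KCASP1Tg 4 (11.73) and highest on KCASP1Tg 3 (13.05), with 11.90 to 12.45 in WT mice. Within the WT mice the order differed. WT 4 had the highest WT adipocyte mean (12.45) and the lowest Rsad2 signal (1521). WT 1 had the highest WT Rsad2 signal (2326) with an adipocyte mean of 11.99. Whether fat contributed to the Rsad2 signal was not tested.

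**Figure D3:**
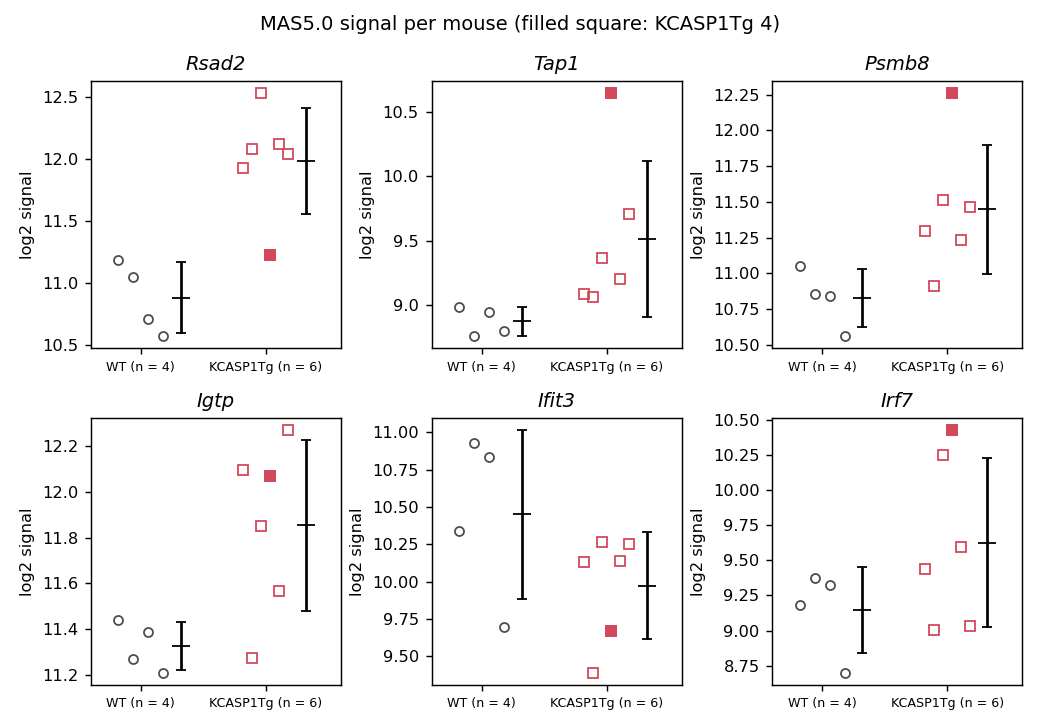
Log2 signal per mouse for Rsad2, Tap1, Psmb8, Igtp, Ifit3 and Irf7, with circles for the 4 WT mice, squares for the 6 KCASP1Tg mice, a filled square for KCASP1Tg 4, and a bar for the mean ± SD of each genotype. Each panel has its own axis. The genotypes did not overlap for Rsad2 and Tap1, and KCASP1Tg 4 was the highest KCASP1Tg array for Tap1, Psmb8 and Irf7 but the lowest for Rsad2.

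The other 7 measured effectors were closer to 0. Ifi35, which binds the interferon-induced protein Nmi, had signals of 2637, 2950, 3101 and 2109 in WT mice and of 2615 to 3812 (median 3040) in KCASP1Tg mice. Xaf1, which promotes apoptosis by binding the inhibitor XIAP, had 1235, 1644, 1920 and 1510 in WT mice and 844 to 1865 (median 1348) in KCASP1Tg mice. In both genes the genotypes overlapped. On the log2 scale the difference was 0.20 for Ifi35 (limma adjusted p = 0.800, standard error 0.14) and -0.27 for Xaf1 (limma adjusted p = 0.834, standard error 0.21). For Zbp1, a sensor of left-handed nucleic acid, it was 0.43, with the widest standard error of all tested genes of the list (0.47), and 0.23 without KCASP1Tg 4. A dimmer probe set of Zbp1 gave a larger difference, 1.77 (limma adjusted p = 0.565), and overlapped too. Trim30a, a regulator of Toll-like receptor signalling, had 0.36, which was 0.07 without KCASP1Tg 4. Usp18, which removes Isg15 from proteins and dampens the type I receptor, Bst2, which tethers budding viruses to the cell, and Parp14, an ADP-ribosyltransferase, had -0.07, 0.06 and 0.11 (-0.14, -0.0279 and -0.0446 without KCASP1Tg 4), with -0.11 for the dimmer probe set of Parp14. The sign of the last 3 changed with the processing.

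The RNA sensors Ifih1 (MDA5) and Dhx58 (LGP2) detect viral RNA in the cytoplasm, and both had log2 fold changes below 0. Dhx58 had signals of 149, 150.2, 176 and 145 in WT mice and of 58.1 to 242 (median 114) in KCASP1Tg mice. While 4 KCASP1Tg arrays were below all WT arrays, KCASP1Tg 4 was above all of them. Dhx58 had a log2 fold change of -0.40 (limma adjusted p = 0.851, standard error 0.33) and -0.61 without KCASP1Tg 4. A dim probe set of Dhx58 that did not pass the filter went the other way (0.80). Ifih1 had signals of 722, 805, 888 and 596 in WT mice and of 536 to 914 (median 718) in KCASP1Tg mice, and the genotypes overlapped. For Ifih1 the log2 fold change was -0.05 (limma adjusted p = 0.991) and -0.12 without KCASP1Tg 4.

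The transcription factors carry the signal from the receptor to these promoters. Irf7, the factor that amplifies type I interferon production, had signals of 582, 665, 642 and 416 in WT mice and of 514 to 1378 (median 733) in KCASP1Tg mice. Of the 6 KCASP1Tg arrays 4 were above all WT arrays, and KCASP1Tg 3 and KCASP1Tg 4 were well above the rest at 1218 and 1378. Irf7 had a log2 fold change of 0.48 (limma adjusted p = 0.766, standard error 0.30) and 0.32 without KCASP1Tg 4. Irf9 had 474, 629, 629 and 576 in WT mice and 427 to 1150 (median 597) in KCASP1Tg mice, and KCASP1Tg 4 was the array far above the rest. Stat2 had 244, 355, 324 and 214 in WT mice and 229 to 426 (median 285) in KCASP1Tg mice. Both genes overlapped between the genotypes, with log2 fold changes of 0.13 and 0.08 that became -0.05 and -0.02 without KCASP1Tg 4. Irf1, the factor most closely tied to IFN-gamma, was at -0.0025, and at -0.12 without KCASP1Tg 4. No KCASP1Tg array lay within its WT range of 1498 to 1782. While 4 were below all WT arrays, KCASP1Tg 4 (2415) and KCASP1Tg 6 (1964) were above all of them.

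The GTPases that IFN-gamma induces, the guanylate-binding proteins and the immunity-related GTPases, attack the membranes around intracellular bacteria and parasites. Of the 6 measured, 5 had a log2 fold change above 0, with a median of 0.14, and 0 were called. Igtp had signals of 2775, 2463, 2678 and 2366 in WT mice and of 2474 to 4947 (median 3995) in KCASP1Tg mice. All KCASP1Tg arrays but KCASP1Tg 2, at 2474, were above every WT array. For Igtp the log2 fold change was 0.53 (limma adjusted p = 0.496, 95% interval 0.11 to 0.95) and 0.49 without KCASP1Tg 4. Iigp1 had signals of 3276, 2126, 3170 and 1915 in WT mice and of 1798 to 5211 (median 3506) in KCASP1Tg mice, with KCASP1Tg 6 the highest and KCASP1Tg 2 the lowest of all 10 arrays. Iigp1 differed by 0.37 on the log2 scale (limma adjusted p = 0.828, standard error 0.28). Irgm1, which controls where the other GTPases of its family act, was at 0.25, and at 0.13 without KCASP1Tg 4.

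Gbp3 was the only GTPase of the 6 with a log2 fold change below 0. Its signals were 1175, 1021, 1181 and 999 in WT mice and 606 to 1112 (median 811) in KCASP1Tg mice. On 4 KCASP1Tg arrays Gbp3 was below every WT array, and KCASP1Tg 3 and KCASP1Tg 4 were within the WT range. For Gbp3 the log2 fold change was -0.40 (limma adjusted p = 0.665, standard error 0.19), and -0.49 without KCASP1Tg 4. Gbp2 and Gbp7, from the same family, were at 0.02 and 0.0003, and the sign of both changed with the processing.

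The antigen processing genes cut proteins into peptides and move them to class I molecules: Psmb8 and Psmb9 are catalytic subunits of the immunoproteasome and Tap1 is part of the peptide transporter of the endoplasmic reticulum. All 3 had a log2 fold change above 0, with a median of 0.62, and 0 passed the test. Tap1 had signals of 506, 434, 495 and 446 in WT 1 to WT 4 and of 534 to 1602 (median 625) in KCASP1Tg mice. The genotypes did not overlap, although KCASP1Tg 1 and KCASP1Tg 2 were just above the WT range and KCASP1Tg 4 was far above the rest. The mean signal of Tap1 was 471 ± 35.5 (SD, n = 4) in WT mice and 795 ± 411 (SD, n = 6) in KCASP1Tg mice. Tap1 had a log2 fold change of 0.64 (limma adjusted p = 0.618, 95% interval 0.01 to 1.27), and the unadjusted p was 0.00952 by the exact two-sided Mann-Whitney test. Of the 4 Tap1 probe sets only 1, the one used here, passed the filter. In the others, all dim, the genotypes overlapped, with log2 fold changes from 0.12 to 1.41.

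Psmb8 had signals of 2118, 1851, 1834 and 1511 in WT mice and of 1925 to 4905 (median 2669) in KCASP1Tg mice. Only KCASP1Tg 2, at 1925, fell within the WT range, below WT 1. For Psmb8 the log2 fold change was 0.62 (limma adjusted p = 0.507, 95% interval 0.12 to 1.12). Psmb9 had signals of 1094, 1120, 1082 and 1065 in WT mice and of 1049 to 3089 (median 1487) in KCASP1Tg mice. The 4 WT arrays lay close together, 5 KCASP1Tg arrays were above them, and KCASP1Tg 2 was below them at 1049. Psmb9 had a log2 fold change of 0.53 (limma adjusted p = 0.650, standard error 0.25). KCASP1Tg 4 was the highest array for all 3 genes, with 4905, 3089 and 1602. It also had the highest mean of the T cell and natural killer cell markers and of the B cell markers. Of these markers, Cd8a was highest on WT 4 (287.7, against 206.0 on KCASP1Tg 4). Ncr1 was highest on KCASP1Tg 5 (69.32, against 46.19 on KCASP1Tg 4). Without KCASP1Tg 4 the log2 fold changes were 0.46 for Psmb8, 0.34 for Psmb9 and 0.41 for Tap1, and Tap1 still did not overlap between the genotypes.

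The mean log2 signal of the Ifit, Oas and Mx genes was set against that of the 9 GTPases and antigen processing genes in each mouse, to compare the type I set with the IFN-gamma set on the same array. The mean of the 10 Ifit, Oas and Mx genes ran from 7.49 to 8.37 in WT mice and from 7.53 to 8.41 in KCASP1Tg mice, so the genotypes covered the same range. The mean of the 3 antigen processing genes ran from 9.81 to 10.04 in WT mice and from 10.003 to 11.50 in KCASP1Tg mice, with KCASP1Tg 2 alone within the WT range. For the 6 GTPases it ran from 10.44 to 10.87 and from 10.35 to 11.17. The Ifit, Oas and Mx mean minus that of the other 9 genes was -2.45 ± 0.32 (SD, n = 4) in WT mice and -2.81 ± 0.13 (SD, n = 6) in KCASP1Tg mice, a difference of -0.36. It was -0.36 without KCASP1Tg 4, -0.26 without WT 2 and -0.45 without WT 1. WT 1 (-2.70) and WT 4 (-2.73) were within the KCASP1Tg range of -3.03 to -2.66. No test was made of this difference, since the genes were chosen with earlier results of these data known. The Ifit genes alone, split off after their values were seen, gave 9.64 ± 0.49 (SD, n = 4) in WT mice and 9.31 ± 0.28 (SD, n = 6) in KCASP1Tg mice, and the Oas genes gave 7.71 ± 0.41 (SD, n = 4) and 7.90 ± 0.40 (SD, n = 6). The Ifit difference was smaller than the SD in WT mice, and the Oas difference was smaller than the SD in either genotype.

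**Figure D4:**
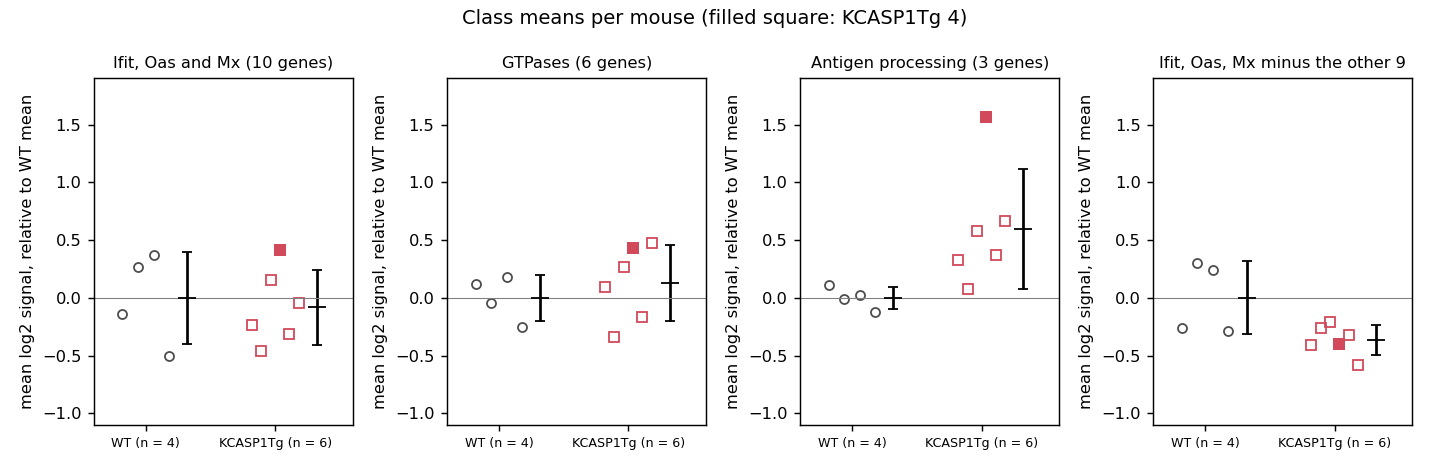
Mean log2 signal per mouse of the 10 Ifit, Oas and Mx genes, the 6 GTPases, the 3 antigen processing genes, and the first of these minus the mean of the other 9 genes, each relative to its mean over the 4 WT mice. Circles are WT mice, squares are KCASP1Tg mice, the filled square is KCASP1Tg 4, and bars give the mean ± SD. The antigen processing mean was above the WT mean in all 6 KCASP1Tg mice, while the Ifit, Oas and Mx mean covered the same range in both genotypes.

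The rest of the pathway was read from 96 further genes, of which 83 were measured and 71 tested. Limma called 1 of the 71 higher and 0 lower, against 0.0894% and 0.0% of all genes tested. This gene was Isg20, an exonuclease that degrades viral RNA. Its signals were 561, 458, 485 and 372 in WT mice and 1052 to 2012 (median 1287) in KCASP1Tg mice, and the genotypes did not overlap. Isg20 rose by 1.53 on the log2 scale (limma adjusted p = 0.0304, standard error 0.21). The call was close to the threshold: it held in 11 of 23 alternatives, and the adjusted p ran from 0.00379 to 0.448. The log2 fold change was above 0 for 71 of the 83 genes, with a median of 0.20, and for 60 of them without KCASP1Tg 4, with a median of 0.14.

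Among the ligands, the interferons themselves were dim. Ifnb1 and Ifna1, the type I interferons, were listed at 35.6 to 50.6 and 18.6 to 80.5 in WT mice and at 26.1 to 57.2 and 13.3 to 76.2 in KCASP1Tg mice. Ifng, which T cells and natural killer cells make, was listed at 3.7 to 10.5 in WT mice and 3.76 to 37.8 in KCASP1Tg mice. All 5 measured ligands were below the filter and were not tested with limma. For Ifng the exact two-sided Mann-Whitney test gave p = 0.171.

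Of the receptor and JAK-STAT genes, 0 of 9 tested were called. Stat3, which signals downstream of many cytokines besides interferons, did not overlap between the genotypes, with 1458 to 1747 in WT mice and 1775 to 2484 in KCASP1Tg mice and a log2 fold change of 0.29 (limma adjusted p = 0.551). Ifngr1, the ligand-binding chain of the IFN-gamma receptor, was above all WT arrays on 5 of 6 KCASP1Tg arrays, with 0.52 (limma adjusted p = 0.494). Among the inhibitors, 0 of 6 tested were called. Socs3, a feedback inhibitor of cytokine receptors, had signals of 269, 249, 155 and 266 in WT mice and of 286 to 804 (median 562) in KCASP1Tg mice, again with no overlap. Its log2 fold change was 1.11 (limma adjusted p = 0.303). Ptpn6, a phosphatase of leukocytes, had 1.23, and its signal on KCASP1Tg 4 (2748) was far above the rest.

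The upstream sensors and adaptors had log2 fold changes above 0 for 14 of 14 genes, against 50.2% of all genes tested, and 0 of 13 tested were called. Tlr9, 1 of the 14, did not pass the filter. Tlr3 (0.01) and Tbk1 (0.04) were closest to 0, and KCASP1Tg 4 was the highest of all arrays for both, at 372 and 2516. Only 2 of 6 KCASP1Tg arrays were above the WT mean for Tlr3, and 3 of 6 for Tbk1. Without KCASP1Tg 4 the mean log2 signal of both genes was lower in KCASP1Tg than in WT mice, so the count of 14 depended on that array. Sting1, the adaptor that answers to DNA in the cytoplasm, had signals of 336, 325, 292 and 313 in WT mice and of 344 to 1038 (median 408) in KCASP1Tg mice without overlap. For Sting1 the log2 fold change was 0.59 (limma adjusted p = 0.652) and 0.37 without KCASP1Tg 4. Cgas, which makes the messenger that activates Sting1, and Tlr7, an endosomal receptor for viral RNA, were at 0.41 and 1.03, and both overlapped between the genotypes.

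Ifitm1 was the pathway gene with the largest difference. It belongs to a family of membrane proteins that hinder the entry of viruses. Its signals were 382, 428, 293 and 196 in WT mice and 684 to 2430 (median 1129) in KCASP1Tg mice, with no overlap. On the log2 scale Ifitm1 differed by 1.99 ± 0.36 (standard error), which did not pass (limma adjusted p = 0.109). With array weights it was 1.62 and passed (limma adjusted p = 0.0208). Of the 14 further IFN-gamma response genes tested, 0 were called. Psme1, a regulator of the proteasome, did not overlap between the genotypes (3969 to 4310 and 4426 to 6445, log2 fold change 0.41, limma adjusted p = 0.387). Nlrc5, the factor that drives class I genes, was at 0.76 (limma adjusted p = 0.505). In all, 6 of the 83 pathway genes were higher without overlap and 0 lower, against 2.29% and 1.04% of all genes tested.

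Leukocyte markers were read on the same arrays. The mean of 5 neutrophil markers ran from 6.22 to 6.66 in WT mice and from 8.25 to 11.16 in KCASP1Tg mice, and limma called 2 of the 4 tested higher, S100a8 and S100a9. The mean of 6 monocyte and macrophage markers ran from 9.20 to 9.58 and from 9.46 to 10.56, with 0 of 6 called. For the 9 T cell and natural killer cell markers it ran from 5.18 to 6.08 and from 5.71 to 8.57, and for 5 markers of plasmacytoid dendritic cells, which make type I interferon, from 7.34 to 7.81 and from 7.33 to 9.11, with KCASP1Tg 4 the highest for both. No marker of these 4 lists was listed at 0, and none of the T cell, natural killer cell or dendritic cell markers was called. The 3′ to 5′ ratio of Actb on the log2 scale, a sign of RNA quality, was 0.49 to 0.59 in WT mice and 0.33 (KCASP1Tg 4) to 0.56 in KCASP1Tg mice. Whether leukocytes contributed to the signals of Tap1, Psmb8, Psmb9 or Rsad2 was not tested.

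**Figure D5:**
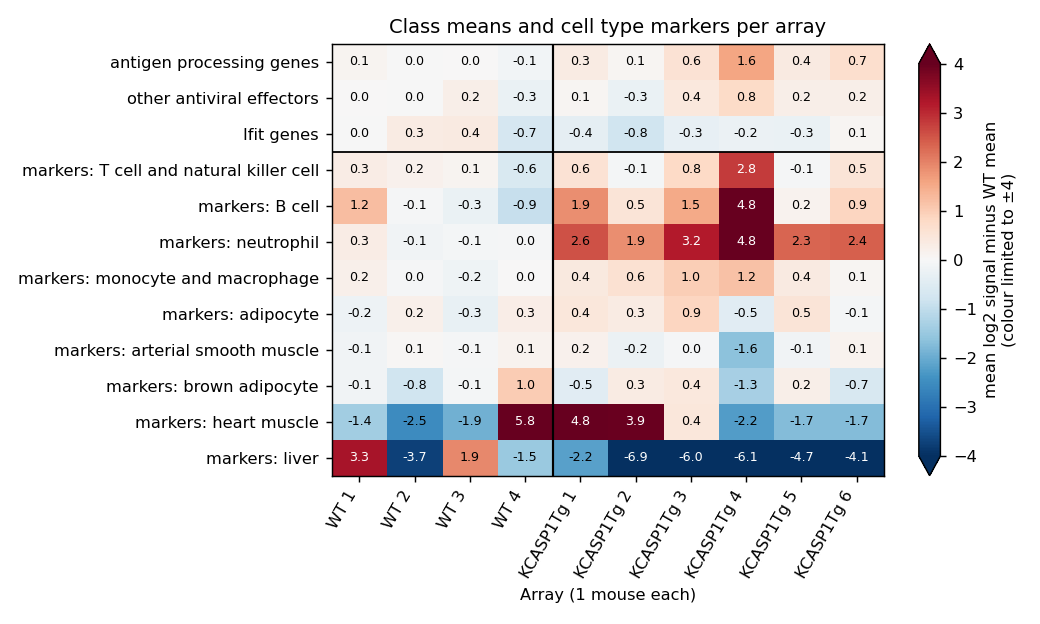
Mean log2 signal per array, minus its mean over the 4 WT arrays, for 3 sets of interferon-stimulated genes (top) and for marker lists of cell types and tissues (bottom), with 1 column per mouse and the value printed in each cell. KCASP1Tg 4 was highest for antigen processing genes and for T cell, B cell and neutrophil markers, and lowest for smooth muscle and adipocyte markers. Heart muscle markers were high on WT 4, KCASP1Tg 1 and KCASP1Tg 2, and liver markers on WT 1 and WT 3.

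The values were also computed without the arrays that held transcripts of other organs. Without WT 1 and WT 3, 24 of the 33 genes were above 0 with a median of 0.19, and 5 were higher without overlap: Oas1a, Rsad2, Igtp, Psmb8 and Tap1. That count stands beside 3.94% of all tested probe sets for 2 WT arrays against 6. Without WT 4, KCASP1Tg 1 and KCASP1Tg 2, 20 genes were above 0 with a median of 0.12, and Rsad2, Igtp, Psmb8, Psmb9 and Tap1 were higher without overlap, beside 5.18% of all tested probe sets for 3 arrays against 4. Limma called 0 of the 31 tested genes in either setting. Both settings were chosen after the data were seen, and their counts are no further evidence. Rsad2 and Tap1 already did not overlap with all 10 arrays in use. Oas1a, Igtp and Psmb8 had overlapped only through WT 1 or WT 3, and Igtp, Psmb8 and Psmb9 only through KCASP1Tg 2. Leaving those arrays out therefore fixed the result for these genes.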

How the data were processed

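The authors labelled total RNA from abdominal aorta with a 3′ IVT kit, hybridised it to Affymetrix GeneChip arrays and computed the signals with MAS5.0 and global scaling, with a target of 500 for the trimmed mean. The deposited table holds these signal intensities on a linear scale. Without controls, and without 2% of the probe sets at each end, the mean was 496 to 497 on each array, and 54.9% to 58.3% of the 45037 probe sets reached a signal of 100. Precision is limited by the number of arrays. Detection calls were not used here, and the signal filter took their place. A batch or scan date is not given in the sources used here. The methods give n = 8 mice for these arrays, and all 10 arrays with labels were used.

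Probe sets were named where the platform annotation gives exactly 1 symbol. The genes and lists were chosen with earlier results of these data known. Log2 values were taken after raising signals under 1 to 1. Limma (version 3.58.1 in R 4.3.3) was run on all 10 arrays over the 26242 probe sets that reached 100 on 4 arrays or more, with genotype as the only term and Benjamini-Hochberg adjustment, and the threshold was an adjusted p under 0.05. An exact two-sided Mann-Whitney test was run on the same values. A gene was read from its brightest probe set by mean signal. Values of single arrays are given for genes called or without overlap and for the 3 genes with the smallest p of each role. The pathway genes named are those called or without overlap, the 2 with the smallest p of each list, and the interferons. On data simulated for this comparison over 26242 probe sets, a log2 change of 0.5 was recovered in 10% of 50 probe sets, and changes of 1, 2 and 4 in 66%, 86% and 98%, while 1.52% of 132 calls were false. The simulated probe sets were drawn independently, and the data gave fewer calls (18 higher), so recovery in the data can be lower. The alternatives were a floor of 16, a pseudocount of 50, no filter or one of 200, quantile normalization, median centring, limma's intensity trend, limma's array weights, the Mann-Whitney test, the replicate number as a block, averaging the probe sets of a gene, and leaving out each array in turn. Leaving out the arrays with liver or with heart muscle transcripts was chosen after seeing the data. The promoter sequences are RefSeq's, for build GRCm38.p6. Figures were made with matplotlib (version 3.10.9, Python 3.11.15).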

Additional observations from a re-analysis of the deposited data

Results flagged for a closer look

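In 3 of 66 groups of arrays (33 genes in 2 genotypes), 1 array lay far from the others of its genotype. Chance alone gives this in about 1 of 20 groups. Trim30a had a signal of 2026 on KCASP1Tg 4, against 532 to 751 on the other KCASP1Tg arrays. Parp14 had 1741 on KCASP1Tg 4, against 758 to 1035 on the others. Dhx58 had 176.4 on WT 3, against 145.4 to 150.2 on the other WT arrays. KCASP1Tg 4 also had the highest mean of the T cell and natural killer cell markers and of the B cell markers, although Cd8a and Ncr1 were highest on other arrays. The part of these markers in the flagged values was not tested.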

How the results depend on the processing

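Of the 31 tested interferon-stimulated genes, 19 kept the sign of their log2 fold change in every alternative that tested them (23 for each, and 22 for Dhx58), among them Rsad2, Igtp, Psmb8, Psmb9, Tap1, Ifit3 and Gbp3. The other 12 changed sign at least once, and none of these 12 had a value above 0.14 in size. The number called was 1 (Rsad2) with array weights and 0 to 1 when each array was left out, with the 1 again Rsad2, without KCASP1Tg 4. It was 0 in the other alternatives. The median of the Ifit, Oas and Mx genes was -0.48 with array weights and ran from -0.36 (without WT 4) to 0.0621 (without WT 2) with each array left out. The cause of these changes was not tested. With 4 and 6 arrays, a log2 change of 0.5 was recovered in 10% of simulated probe sets and a change of 1 in 66%. The simulation gave 132 calls, against 18 higher and 0 lower in the data. An adjusted threshold is easier to reach with more calls, so recovery in the data can be lower than these shares.

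Probe sets called higher over all genes, 18 as reported, were 204 with array weights, 0 by the exact Mann-Whitney test, 0 without WT 1 and WT 3, 2 without WT 4, KCASP1Tg 1 and KCASP1Tg 2, and 10 to 61 with each array left out (10 without KCASP1Tg 1, 61 without KCASP1Tg 4 and 39 without KCASP1Tg 6). Those called lower, 0 as reported, were 1 with a floor of 16, 2 with a pseudocount of 50, 2 with no filter, 3 with a filter of 200, 1 with quantile normalization, 2 with median centring, 3 with an intensity trend, 63 with array weights, 1 with probe sets averaged by gene and 0 to 8 with each array left out. Pathway genes called, 1 as reported, were 2 with array weights, 0 with no filter, 0 by the Mann-Whitney test, 0 without WT 1 and WT 3, 0 without WT 4, KCASP1Tg 1 and KCASP1Tg 2, and 0 to 1 with each array left out, where Isg20 passed only without KCASP1Tg 3, KCASP1Tg 4 or KCASP1Tg 6.

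With the replicate number as a block, 0 probe sets were called in place of 18, 0 pathway genes in place of 1, and Gbp2 was at -0.05. The numbers do not pair the mice: the deviations of same-numbered arrays correlated at 0.11, -0.31, -0.43 and -0.33, no WT array correlated best with the KCASP1Tg array of its own number, and KCASP1Tg 5 and KCASP1Tg 6 have no WT partner.

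The following log2 fold changes changed sign. With array weights Oasl1 was 0.0605, Bst2 -0.20, Parp14 -0.0931, Irf9 -0.0515, Stat2 -0.11, Gbp2 -0.12 and Gbp7 -0.29. Without WT 1 and WT 3, Oasl2 was 0.24, Usp18 0.0098, Ifih1 0.0578 and Irf1 0.0341. Without WT 4, KCASP1Tg 1 and KCASP1Tg 2, Oasl1 was 0.12, Irf1 0.13 and Gbp7 -0.14. Quantile normalization gave 0.0105 for Irf1 and -0.0042 for Gbp7, and Gbp7 was -0.0002 with a pseudocount of 50 and -0.0125 with median centring. With each array left out in turn, Oasl1 ran from -0.089 to 0.0508, Oasl2 from -0.44 to 0.13, Mx1 from -0.44 to 0.16, Usp18 from -0.14 to 0.0033, Bst2 from -0.0699 to 0.17, Parp14 from -0.0446 to 0.20, Ifih1 from -0.15 to 0.0389, Irf1 from -0.12 to 0.0951, Irf9 from -0.0473 to 0.24, Stat2 from -0.045 to 0.20, Gbp2 from -0.0798 to 0.0836 and Gbp7 from -0.18 to 0.11.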
